A study of Mus musculus with 6 samples.

Results

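Wnt signalling genes were measured by RNA sequencing in 2 dissected parts of the mouse embryonic heart region, pooled at embryonic day 9.5: the anterior part of the dorsal pericardial wall, which holds second heart field progenitors, and the outflow tract that they build. The genes are a chosen set of 42, made up of 12 Wnt ligands, 10 Frizzled receptors, 8 secreted antagonists, 3 R-spondins with the R-spondin receptor Lgr5, 5 genes known as Wnt targets, and the polarity protein gene Vangl2 with the receptors Ror1 and Ror2. They were picked by name for their place in the pathway, out of 25888 genes with a value. Earlier results of these data were known when the list was made. Of the 42, 41 were measured, and Wnt3a was not analysed here. The 3 control libraries carry the genotype label control, with no alleles stated, and the 3 mutant libraries the label Hand2flox/flox; Mef2c-AHF-Cre. All 6 are of the C57BL/6 strain. In the mutants, floxed Hand2 is recombined by a Cre driven by a Mef2c enhancer of the anterior heart field, so cells of the dissected region outside that lineage keep the gene. Each library is a pool of embryos of unstated number. Nothing says whether the pools came from separate litters, so p-values measure the spread between these libraries, which may be technical.

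Wnt ligands are secreted, lipid-modified proteins that bind Frizzled receptors. In the canonical branch, Frizzled and the coreceptors Lrp5 and Lrp6 stabilise beta-catenin, which acts with TCF and LEF proteins on target genes such as Axin2, itself a brake on the pathway. In the noncanonical branch, ligands such as Wnt5a and Wnt11 act through Ror receptors and planar cell polarity proteins such as Vangl2. Secreted Frizzled-related proteins and Dickkopf proteins restrain signalling outside the cell, and R-spondins raise it by sparing Frizzled receptors from turnover. In the second heart field, the progenitors that build the outflow tract, canonical signalling is known to sustain proliferation, and Wnt5a and Wnt11 are known to be needed for outflow tract formation.

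With the replicate number as a block, a fit described below, 6 of 37 tested Wnt genes passed the threshold, beside 5.12% of all genes. None of the 37 passed in the same fit without the block. Upstream sequence of 5 of the 6 was at hand. Sequences are from RefSeq on GRCm38.p6, written in the direction of the gene, and Wnt5a was not matched. Of the 42 genes, 30 had an entry. The 250 bases before each RefSeq start were searched on both strands for the E-box CANNTG, the general binding motif of basic helix-loop-helix proteins such as Hand2, and for the TCF core motifs CTTTGA and CTTTGT. Among 27025 genes with an entry, 66.0% hold an E-box in this window, 14.0% CTTTGA and 16.5% CTTTGT. Frzb held 1 E-box and 1 CTTTGA, Dkk1 held 2 CTTTGA and 1 CTTTGT, and the windows of Wnt2, Sfrp2 and Axin2 held none of the 3 motifs. No matches overlapped each other. For Wnt2, Frzb and Dkk1, GENCODE places the start 140, 229 and 169 bases further upstream. Therefore only the bases before both starts are shown for Wnt2, and only 30 bases around the matches for Frzb and Dkk1, with matches in capitals. By GENCODE, the Frzb matches and the Dkk1 matches written CTTTGA and CTTTGT lie downstream of the start. The Dkk1 match written TCAAAG ends at that start.
Wnt2, chr6:18030586-18030695, minus strand: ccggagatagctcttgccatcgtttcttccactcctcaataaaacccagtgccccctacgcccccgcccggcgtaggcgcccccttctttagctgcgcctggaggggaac
Dkk1, chr19:30549646-30549675, minus strand: gagtgTCAAAGtcctccctgcttccgacac
Dkk1, chr19:30549589-30549618, minus strand: caaagCTTTGAaatcccatcccggCTTTGT
Frzb, chr2:80447467-80447496, minus strand: aaaacTCAAAGccttctcggaaggaggagc
Frzb, chr2:80447397-80447426, minus strand: aggtgggaaggcgCAGCTGcgagccaaggc
Sfrp2, chr3:83766071-83766320, plus strand: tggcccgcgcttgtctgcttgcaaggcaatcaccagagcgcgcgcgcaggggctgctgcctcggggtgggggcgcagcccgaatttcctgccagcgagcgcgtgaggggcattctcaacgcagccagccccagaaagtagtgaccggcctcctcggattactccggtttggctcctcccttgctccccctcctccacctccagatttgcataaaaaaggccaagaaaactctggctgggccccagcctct
Axin2, chr11:108920099-108920348, plus strand: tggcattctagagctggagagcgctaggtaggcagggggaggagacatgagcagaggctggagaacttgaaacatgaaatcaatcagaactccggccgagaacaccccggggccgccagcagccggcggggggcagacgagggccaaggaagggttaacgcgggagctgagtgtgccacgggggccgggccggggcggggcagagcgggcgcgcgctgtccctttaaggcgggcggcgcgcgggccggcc
A match is a stretch of letters and says nothing of whether a protein binds there.

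Levels are given as FPKM, fragments per kilobase of exon and per unit of sequencing depth, which corrects for gene length and depth. As inferred from the deposited values, they had been scaled by 22975222 to 31065423 fragments per library. FPKM summed to 417592.5 in control replicate 1 and 377156.7 in mutant replicate 1, against 314462.3 to 328573.6 in the other libraries. Hand2, the targeted gene, had 116, 64.3 and 81.6 FPKM in control replicates 1 to 3 and 34.6, 22.2 and 17.9 in mutant replicates 1 to 3 (two-sided exact permutation p = 0.1, the smallest that 3 against 3 libraries can give). Markers of heart muscle, endothelium and second heart field were present in all 6 libraries. Control replicate 3 stood apart, with a summed 621 FPKM of 9 yolk sac and liver markers against at most 6.38 in the other libraries. Libraries of the same replicate number deviated together from their group means, although no label explains the numbers.

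Of the 41 measured Wnt genes, 37 had a mean of at least 1 FPKM over the 6 libraries and were tested. The other 4, Wnt3, Wnt9a, Wif1 and Lgr5, lay between 0.230 and 1.13 FPKM in the single libraries. Groups were compared with limma on log2(FPKM + 1) over 12650 genes, with Benjamini-Hochberg adjustment and a threshold of 0.05. On this scale fold changes of low genes are understated. None of the 37 passed, while 0.174% of all genes tested did (0.0237% higher and 0.15% lower). Without adjustment, p was under 0.05 for 13 of the 37, of which 10 were higher and 3 lower in mutants, beside 6.92% of all genes (2.6% higher and 4.32% lower). With the replicate number as a block, Frzb, Sfrp2 and Axin2 rose and Wnt2, Wnt5a and Dkk1 fell at an adjusted p under 0.05 by limma. In that fit 5.12% of all genes were called, of which 1.42% rose and 3.7% fell, and 8.11% of the tested Wnt genes went each way. Array weights without the block called 6 Wnt genes beside 4.28% of all genes. With the block, array weights called 12 (7.51% of all genes), rescaling to equal sums 10 (5.94%), quantile normalization 9 (5.16%) and voom on recovered fragments 16 (10.1%). The median log2 fold change was 0.16 over the 37 and -0.01 over all genes tested, and 25 of the 37 were above 0 (67.6%, against 47.9% of all genes). Under quantile normalization 28 of the 37 were above 0 (75.7%, against 54.3% of all genes), and after rescaling to equal sums 30 (81.1%, against 63.7%). The mutant values lay wholly above the controls in 8 Wnt genes (Wnt9b, Fzd7, Fzd8, Fzd10, Frzb, Rspo2, Axin2 and Vangl2) and wholly below in 3 (Wnt2, Wnt11 and Fzd9), beside 5.44% and 6.85% of all genes tested.

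**Figure D1:**
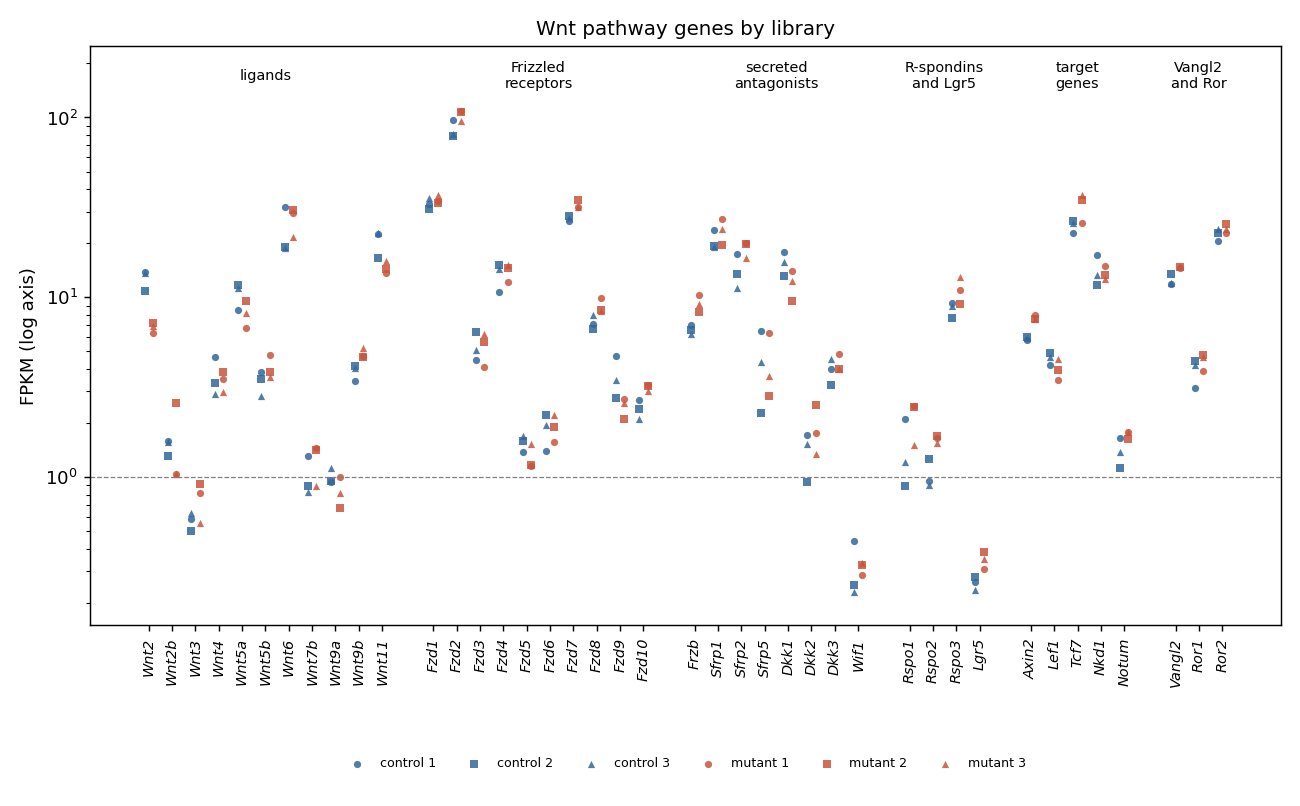
FPKM on a log axis of the 41 measured Wnt genes, with controls in blue and mutants in red, a symbol for each replicate number, and a dashed line at 1 FPKM, the mean needed for testing. Fzd2 lies highest, between 78.9 and 108 FPKM, and the ligands between 0.502 and 31.6.

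**Figure D2:**
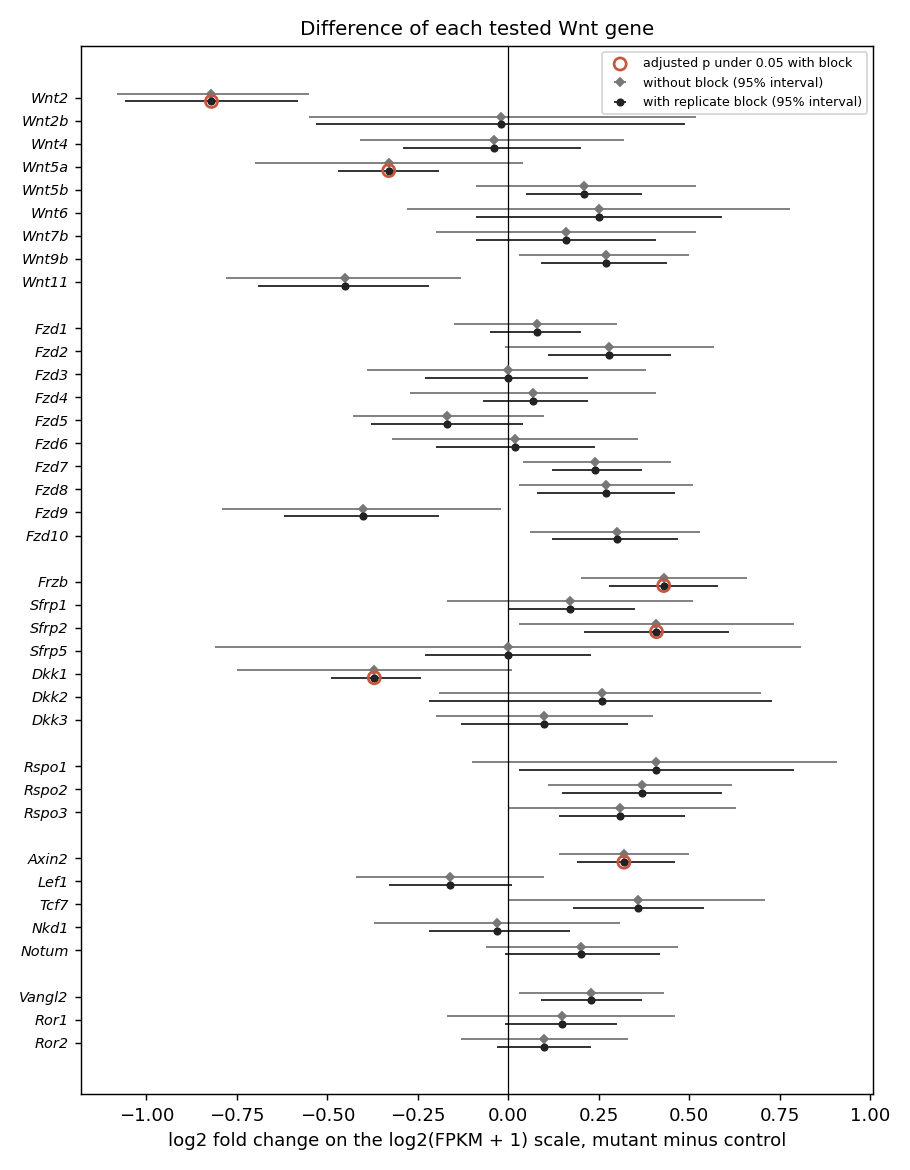
Log2 fold change, mutant minus control, of the 37 tested Wnt genes on the log2(FPKM + 1) scale, with 95% intervals from limma without (grey) and with (black) the replicate block. Red rings mark the 6 genes past an adjusted p of 0.05 with the block, and Wnt2 lies farthest from 0 at -0.82.

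Among the ligands, Wnt2 differed most. This ligand acts mainly through the canonical branch and is expressed in mesoderm of the heart field and of the later lung. It had 13.9, 10.9 and 13.6 FPKM in control replicates 1 to 3 and 6.35, 7.17 and 6.89 in mutant replicates 1 to 3, which rest on 329 to 826 fragments per library. The lowest control thus lay above the highest mutant, and the mutant mean was 53.2% of the control mean (12.8 ± 1.68 and 6.80 ± 0.417, SD, n = 3 each). On the log2 scale the difference was -0.82 (SE 0.11), at a limma adjusted p of 0.0711 without the block and 0.0138 with it (0.000819 to 0.336 over 22 alternative settings). Wnt2 passed the threshold in each of the 3 blocked fits that left out both libraries of 1 number, and fell by 0.71, 0.95 and 0.78 on the log2 scale without numbers 1, 2 and 3. No other of the 37 tested Wnt genes passed in all 3 of these fits. The fits reused libraries of the full fit and are no separate support.

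Wnt11, the noncanonical ligand of outflow tract muscle, had 22.4, 16.6 and 22.9 FPKM in controls and 13.6, 14.4 and 15.9 in mutants. The groups did not overlap, and control replicate 2 lay nearest to the mutants. Its log2 fold change was -0.45 (SE 0.14), and it passed in neither fit (limma adjusted p = 0.475 without the block and 0.0583 with it, 0.00945 to 1.00 over the alternatives). Wnt5a, a noncanonical ligand of the second heart field and pharyngeal mesoderm, had 8.47, 11.6 and 11.3 FPKM in controls and 6.72, 9.504 and 8.18 in mutants. Its groups overlapped, but each mutant lay below the control of its number. Wnt5a had a log2 fold change of -0.33 (SE 0.16 without the block and 0.06 with it), with a limma adjusted p of 0.797 without the block and 0.0350 with it (0.00633 to 1.00 over the alternatives). Without the block, leaving out mutant replicate 1 moved the log2 fold change of Wnt5a to -0.21, and leaving out control replicate 1 to -0.46. Leaving out both libraries numbered 1, 2 or 3 ended the call of Wnt5a (limma adjusted p = 0.0927, 0.0725 and 0.160).

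The remaining ligands gave no call. Wnt6, a ligand of surface ectoderm and the most abundant of the ligands, had 31.6, 18.9 and 18.7 FPKM in controls and 29.3, 30.4 and 21.7 in mutants. Its values overlapped, with control replicate 1 above all the mutants (log2 fold change 0.25, 95% interval -0.28 to 0.78). Wnt9b, a canonical ligand of epithelia, had 3.41, 4.16 and 4.05 FPKM in controls and 4.70, 4.64 and 5.197 in mutants. Its groups did not overlap, and its log2 fold change was 0.27 (SE 0.10, limma adjusted p = 0.624 without the block and 0.0957 with it, 0.0530 to 1.00 over the alternatives). Wnt9b lies on chromosome 11 next to Wnt3, with 24328 bases between the genes, and Wnt3 averaged 0.572 ± 0.0642 FPKM over the control libraries and 0.764 ± 0.184 over the mutant ones (SD, n = 3 each), under the level needed for testing. Wnt2b, Wnt4, Wnt5b and Wnt7b had log2 fold changes from -0.04 to 0.21. Wnt2b was high in 1 library, with 2.57 FPKM in mutant replicate 2 against 1.04 to 1.59 in the others. Over the 9 ligands tested the median log2 fold change was -0.02, with 4 above 0.

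**Figure D3:**
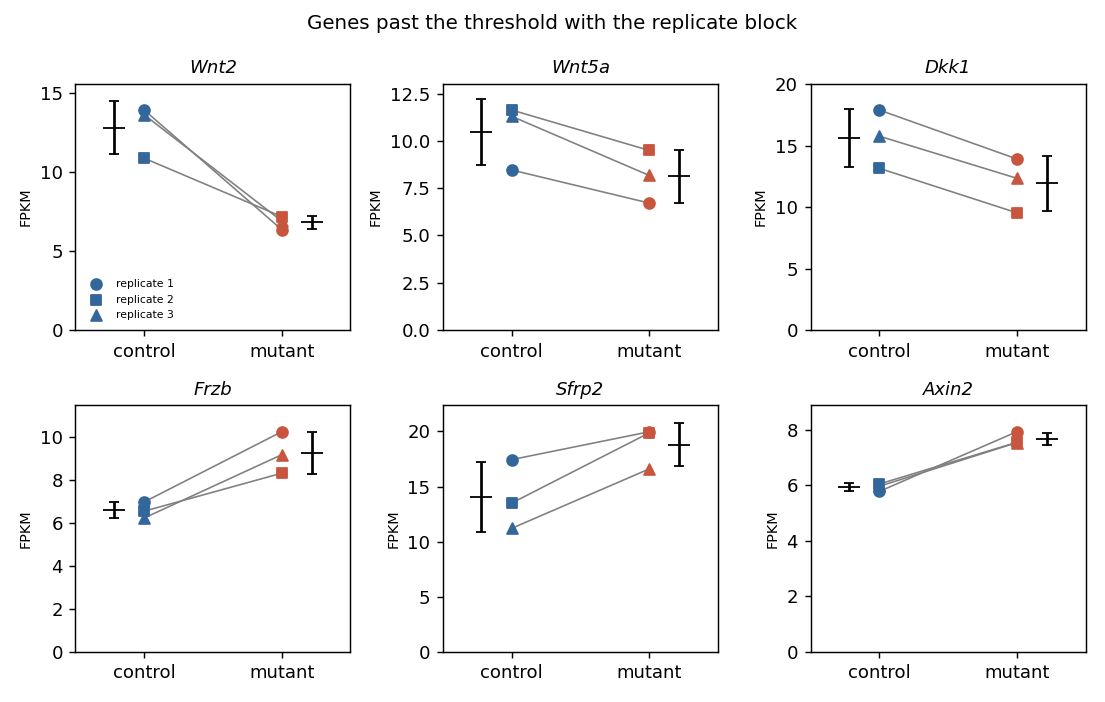
FPKM by library of the 6 Wnt genes past the threshold with the replicate block, with lines joining libraries of the same number and bars for the mean ± SD of each group (n = 3). The lines of Wnt2, Wnt5a and Dkk1 all fall and those of Frzb, Sfrp2 and Axin2 all rise, while the groups of Wnt5a, Dkk1 and Sfrp2 overlap.

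No Frizzled gene passed either fit. These encode the seven-pass receptors of Wnt ligands. Without the block and without adjustment, p was under 0.05 for 3 higher and 1 lower of the 10 (2.6% and 4.32% of all genes), and 7 had a log2 fold change above 0 (47.9% of all genes), with a median of 0.07. Fzd2, the most abundant, had 96.7, 78.9 and 81.2 FPKM in controls and 108, 107 and 95.7 in mutants. Control replicate 1 reached into the mutant range, and the log2 fold change was 0.28 (95% interval -0.01 to 0.57). Fzd7, a receptor of early mesoderm, had 26.7, 28.4 and 27.6 FPKM in controls and 31.9, 34.9 and 31.7 in mutants. Its groups lay apart by more than the spread within either, with a log2 fold change of 0.24 (SE 0.09, limma adjusted p = 0.577 without the block and 0.0524 with it, 0.0199 to 1.00 over the alternatives).

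Fzd8 had 7.14, 6.70 and 7.96 FPKM in controls and 9.91, 8.49 and 8.44 in mutants. Fzd10 had 2.68, 2.38 and 2.12 FPKM in controls and 3.24, 3.22 and 3.00 in mutants. Both had higher values in every mutant than in any control, with log2 fold changes of 0.27 and 0.30 (limma adjusted p with the block 0.117 and 0.0747, 0.0475 to 1.00 and 0.0363 to 1.00 over the alternatives). Fzd9, chosen after its values were seen, went the other way, with 4.69, 2.77 and 3.45 FPKM in controls and 2.71, 2.11 and 2.57 in mutants. Control replicate 2 and mutant replicate 1 nearly touched, and control replicate 1 was the highest library, without which the log2 fold change was -0.25. With all libraries it was -0.40 (SE 0.16, limma adjusted p = 0.685 without the block and 0.0622 with it, 0.0303 to 1.00 over the alternatives). Fzd1, Fzd3, Fzd4, Fzd5 and Fzd6 had log2 fold changes between -0.17 and 0.08. In order of mean FPKM in controls, Fzd2 (85.6 ± 9.71) lay above Fzd1 (33.2 ± 2.37), Fzd7 (27.6 ± 0.853) and Fzd4 (13.4 ± 2.30, SD, n = 3 each), and no neighbours in this order shared control values.

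The secreted antagonists split. Frzb and Sfrp2 encode secreted Frizzled-related proteins, which bind Wnt ligands, and both rose with the block. Frzb had 6.98, 6.55 and 6.23 FPKM in controls and 10.3, 8.33 and 9.19 in mutants, with no overlap. The mutants exceeded the controls by 0.43 on the log2 scale (SE 0.10), at a limma adjusted p of 0.311 without the block and 0.0220 with it (0.00513 to 0.982 over the alternatives). Sfrp2 had 17.4, 13.5 and 11.2 FPKM in controls and 20.0, 19.9 and 16.6 in mutants, so control replicate 1 lay above mutant replicate 3. Its log2 fold change was 0.41 (SE 0.16 without the block and 0.08 with it), with a limma adjusted p of 0.671 without the block and 0.0497 with it (0.0125 to 1.00 over the alternatives). Without both libraries numbered 1, 2 or 3, the blocked limma adjusted p was 0.0763, 0.0358 and 0.0897 for Frzb and 0.0215, 0.135 and 0.168 for Sfrp2.

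Dkk1, the Dickkopf inhibitor that binds Lrp5 and Lrp6, went down in each pair. It had 17.9, 13.2 and 15.8 FPKM in controls and 13.9, 9.55 and 12.4 in mutants. The groups overlapped between control replicate 2 and mutant replicate 1, while the log2 ratios within pairs 1, 2 and 3 were -0.34, -0.43 and -0.33. The log2 fold change was -0.37 (SE 0.16 without the block and 0.05 with it), with a limma adjusted p of 0.747 without the block and 0.0201 with it (0.00731 to 1.00 over the alternatives). Without both libraries numbered 1, 2 or 3 the blocked adjusted p of limma for Dkk1 was 0.0621, 0.0582 and 0.0750, past the threshold in none. Without mutant replicate 2 and without the block, the log2 fold change of Dkk1 was -0.23.

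Sfrp1, the most abundant antagonist, had 23.6, 19.4 and 19.1 FPKM in controls and 27.2, 19.4 and 24.0 in mutants. Its groups overlapped, and the log2 fold change was 0.17 (95% interval -0.17 to 0.51). Sfrp5, a Frizzled-related protein gene of foregut endoderm and inflow progenitors, followed the replicate number instead of the group. Sfrp5 had 6.47, 2.27 and 4.38 FPKM in control replicates 1 to 3 and 6.37, 2.82 and 3.64 in mutant replicates 1 to 3. Dkk2 and Dkk3 had log2 fold changes of 0.26 and 0.10 and passed in neither fit. Wif1, which encodes a Wnt-binding inhibitor, was at 0.230 to 0.443 FPKM.

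The R-spondin genes lay higher in the mutant of each pair, with no call in either fit. Rspo3, the most abundant, had 9.35, 7.72 and 8.93 FPKM in controls and 11.04, 9.21 and 13.0 in mutants. Control replicate 1 lay just above mutant replicate 2, and the log2 fold change was 0.31 (SE 0.13, limma adjusted p = 0.735 without the block and 0.0705 with it, 0.0262 to 1.00 over the alternatives). Rspo2 had 0.957, 1.27 and 0.906 FPKM in controls and 1.65, 1.69 and 1.54 in mutants. Its groups did not overlap, and the log2 fold change was 0.37 (SE 0.11, limma adjusted p = 0.440 without the block and 0.0816 with it, 0.0152 to 1.00 over the alternatives). Rspo1 had 2.11, 0.897 and 1.21 FPKM in controls and 2.49, 2.45 and 1.51 in mutants, an overlap that came from control replicate 1 (log2 fold change 0.41, 95% interval -0.10 to 0.91). Being higher in all 3 pairs was also found for 20.5% of all genes tested. Lgr5, the receptor, had 0.260, 0.279 and 0.235 FPKM in controls and 0.310, 0.383 and 0.349 in mutants, too low to be tested.

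Of the target genes, Axin2 had the tightest values. Axin2 had 5.78, 6.05 and 5.97 FPKM in controls and 7.94, 7.55 and 7.55 in mutants. The groups were far apart relative to their spread (5.93 ± 0.137 and 7.68 ± 0.223, SD, n = 3 each), a rise of 29.4% in the mean. On the log2 scale the difference was 0.32 (SE 0.08), at a limma adjusted p of 0.322 without the block and 0.0346 with it (0.00899 to 1.00 over the alternatives). With the block and without both libraries numbered 1, 2 or 3, the limma adjusted p of Axin2 was 0.136, 0.0761 and 0.123.

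None of the other targets passed either fit. Tcf7, a TCF transcription factor gene, had 22.6, 26.6 and 25.8 FPKM in controls and 25.8, 34.8 and 37.3 in mutants. Mutant replicate 1 lay within the control range, and the log2 fold change was 0.36 (SE 0.15 without the block and 0.07 with it, limma adjusted p = 0.711 and 0.0532, 0.0108 to 1.00 over the alternatives). Notum, which encodes an enzyme that strips the lipid from Wnt ligands, had 1.64, 1.12 and 1.37 FPKM in controls and 1.77, 1.63 and 1.78 in mutants. Its groups met at control replicate 1 and mutant replicate 2, and its log2 fold change was 0.20 (95% interval -0.06 to 0.47). Lef1, of the same protein family as Tcf7, averaged 4.57 ± 0.368 FPKM over the control libraries and 3.99 ± 0.549 over the mutant ones (SD, n = 3 each). Its log2 fold change of -0.16 passed in neither fit. Nkd1, a Dishevelled-binding antagonist, had 14.0 ± 2.81 and 13.6 ± 1.20.

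Vangl2, the core planar polarity gene, had 11.9, 13.5 and 12.05 FPKM in controls and 14.5, 14.8 and 14.997 in mutants. The mutants lay close together and above all controls, with a log2 fold change of 0.23 (SE 0.08, limma adjusted p = 0.618 without the block and 0.0854 with it, 0.0362 to 1.00 over the alternatives). Ror2, a receptor of Wnt5a, had 20.5, 22.8 and 24.0 FPKM in controls and 22.7, 25.4 and 24.0 in mutants, and Ror1 had 3.13, 4.44 and 4.19 in controls and 3.87, 4.76 and 4.63 in mutants. The groups of both receptors overlapped, with log2 fold changes of 0.10 and 0.15 (95% intervals -0.13 to 0.33 and -0.17 to 0.46).

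Of 72 other pathway genes, 71 had values and 50 were tested. By limma, 0 passed in the fit that has no block, where an unadjusted p was under 0.05 for 3 higher and 0 lower genes (6.0%, beside 2.6% of all genes higher and 4.32% lower). With the block 1 rose and 1 fell, 2.0% each way, near the 1.42% and 3.7% of all genes. Tle4, a corepressor gene of TCF proteins, had 7.11, 9.87 and 8.60 FPKM in controls and 9.45, 12.9 and 12.2 in mutants. It was higher within each pair although the groups overlapped, with a log2 fold change of 0.39 (SE 0.15 without the block and 0.05 with it, limma adjusted p = 0.663 and 0.0184, 0.00255 to 1.00 over the alternatives). Bambi, a BMP pseudoreceptor gene also reported as a Wnt target, had 29.997, 20.7 and 25.3 FPKM in controls and 24.4, 16.4 and 20.2 in mutants. It was lower within each pair, with a log2 fold change of -0.31 (SE 0.18 without the block and 0.05 with it, limma adjusted p = 0.868 and 0.0266, 0.00615 to 1.00 over the alternatives). Without control replicate 1 or mutant replicate 2, and without the block, the log2 fold change of Bambi was -0.18 and -0.17. The median over the 50 was 0.10, and 36 lay above 0 (72.0%, against 47.9% of all genes).

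Some cell type markers differed between the groups. Summed over 12 of 12 heart muscle markers, controls had 5452 to 8809 FPKM and mutants 3569 to 5542, with 11 lower in the mutant mean. Endothelial and endocardial markers, 9 of 9 lower, summed to 143 to 167 and 112 to 129. Second heart field markers, 7 of 9 higher, summed to 127 to 153 and 178 to 263. Tbx1 made up most of that gap, with 50.8 to 76.0 FPKM in controls and 93.3 to 149 in mutants, and the sums of the other 8 were 75.8 to 82.5 and 82.5 to 114. Isl1, the defining marker of these progenitors, lay wholly lower in mutants, with 14.6 to 16.96 against 18.03 to 21.4. None of these markers was at 0 in any library. In pooled tissue, fewer cells of a type and less RNA per cell cannot be told apart, and the part of these shifts in the lower Wnt2, Wnt11, Wnt5a and Dkk1 or the higher Frzb, Sfrp2 and Axin2 was not tested. Surface ectoderm markers (8 of 8 measured, 5 higher in the mutant mean, none at 0 but Krt5 and Krt14 under 1 FPKM throughout) overlapped. They summed to 357 to 515 in controls and 325 to 389 in mutants. Krt8 and Krt18 made up most of these sums, with 248 and 203 FPKM in control replicate 1, where both and Wnt6 were highest. Grhl3 also peaked there, while Epcam and Cdh1 were highest in mutant replicate 2 and Trp63, Krt5 and Krt14 in mutant replicate 1. A link of Wnt6 to these markers was not tested. Red cell markers, 10 of 10 lower in the mutant mean, summed to 3366 to 8012 FPKM in controls and 3509 to 5119 in mutants. Neural tube markers (6 of 8 measured higher, Sox1 and Olig2 at 0 in some libraries) had 63.5 to 72.0 and 69.1 to 81.0. The sums of somite and head muscle markers (6 of 7 measured higher) and epicardial markers (3 of 6 higher) also overlapped. Neural crest markers (7 of 7, 5 higher, none at 0) had 134 to 220 and 176 to 232, and pharyngeal endoderm markers (8 of 8, 6 higher, none at 0) 54.4 to 63.1 and 54.2 to 72.9. Twist1 made up most of the neural crest sums, with 118 to 201 FPKM in controls and 158 to 213 in mutants. Sox10 lay between 1.70 and 6.75 FPKM, and Foxd3 under 1 FPKM in every library. Without control replicate 3, the library with yolk sac transcripts, Wnt2 had a log2 fold change of -0.77, Wnt11 -0.37, Wnt5a -0.27, Dkk1 -0.35, Frzb 0.40, Sfrp2 0.27 and Axin2 0.33, without the block.

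**Figure D4:**
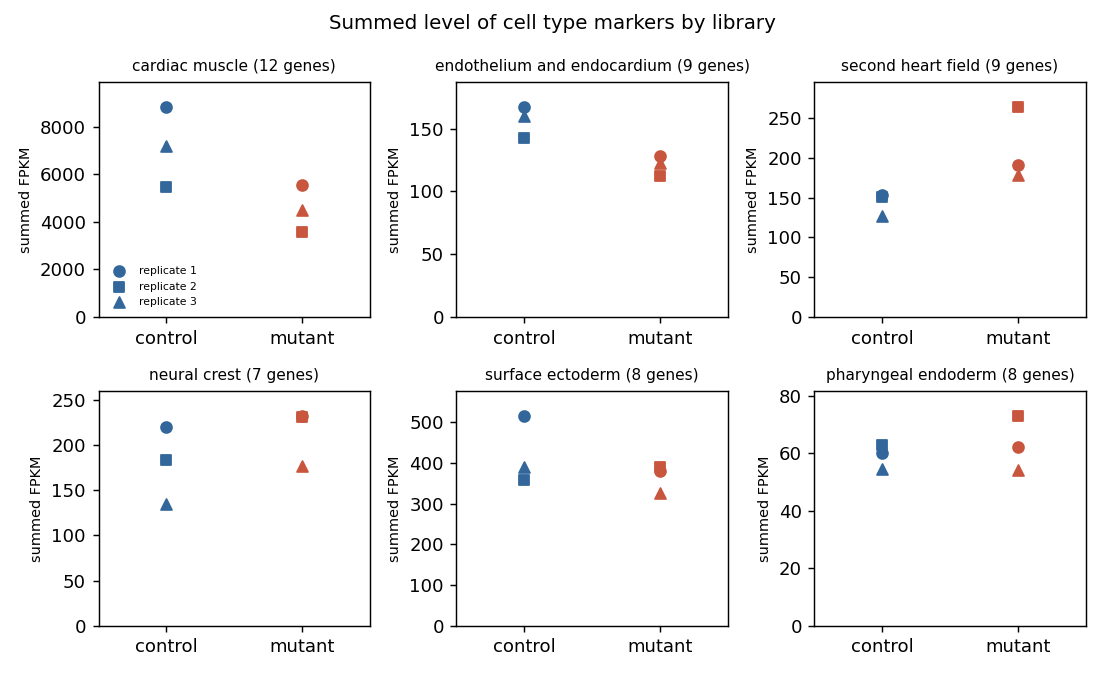
Summed FPKM of marker genes of 6 cell types by library, with a symbol for each replicate number. Heart muscle markers overlap narrowly between controls and mutants, endothelial markers (143 to 167 in controls and 112 to 129 in mutants) and second heart field markers (127 to 153 and 178 to 263) do not overlap, and the other 3 lists overlap.

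Some exons are shared with genes on the opposite strand. By GENCODE M21, Axin2 shares 209 of 5506 exonic bases with Gm11670, Sfrp2 347 of 2153 with Gm26771, Wnt5a 358 of 7823 with Gm2670, Wnt11 364 of 4137 with Gm8398, Rspo3 404 of 3090 with Gm48159 and Notum 708 of 2408 with Notumos. Lef1 shares 1208 of 8788 with Gm43352 and Fzd5 1233 of 6915 with Gm38058. For Wnt7b the overlap is 324 of 4898 with AU022754, and for Fzd6 152 of 4818 with Gm26704. No strand setting is given in the sources used here, so fragments from those bases cannot be assigned to either gene.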

How the data were processed

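The authors deposited 1 table of FPKM values with a column for each of the 6 libraries. Per the submitters' processing notes, bcl2fastq 2.18, STAR 2.5.1b, Cufflinks 2.2.1 and the mouse build mm8 were used; the sources used here give no annotation, strand setting or filter. Symbols came from a reference name table, with no match for 129 of 25888 IDs. With GENCODE M21 exon lengths (GRCm38), FPKM values gave whole fragments within 0.001 in all 6 libraries for 20321 of 25759 genes (78.9%), so the gene models counted resemble GRCm38 more than the listed build, and coordinates are on GRCm38. These fragments were used for a voom fit; for the other genes, Wnt5a, Fzd8, Rspo2, Rspo3, Tle4 and Bambi among them, they were rounded approximations, and fragment numbers are printed for none of them.

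Groups were compared in R 4.3.3 by limma 3.58.1, two-sided, on log2(FPKM + 1), with a mean-variance trend. The fit covered 12650 genes with a mean of at least 1 FPKM. It was tried, with and without the block, on simulated data in which same-numbered libraries shared a deviation. That trial cannot tell whether the real libraries are paired. Samples were grouped by their titles, and replicate numbers are from the titles. Deviations from the group means correlated at 0.728, 0.443 and 0.443 for libraries numbered 1, 2 and 3, all over 0.1, so same-numbered libraries were treated as pairs. Control 2 and mutant 3, of unlike numbers, also correlated at 0.306. The deviations within a group sum to 0, so these correlations depend on one another. Those of numbers 2 and 3 are thus not independent of that of number 1. The pairing comes from the values, not the labels, and the calls of the blocked fits rest on it. Members, gene lists and tests were chosen with earlier results of these data known. Values per library are given for members past either fit and, per class, for the 3 smallest p-values and the highest mean; Fzd9, Sfrp5 and others given with values beside these were named after their values were seen. Of the other pathway genes, those past either fit are named.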

Additional observations from a re-analysis of the deposited data

How the results depend on the processing

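Over 22 alternative settings, 25 genes, among them Wnt2, Wnt5a, Dkk1, Frzb, Sfrp2 and Axin2, kept their direction in all. They are the genes past either fit, those with the 3 smallest p-values or the highest mean of each class, and Fzd9. Most were thus chosen by small p-values in the same libraries that the settings refit. A kept direction was therefore likely from the start and is no separate support. Of all 37 tested Wnt genes, 9 had the opposite sign in at least 1 setting: Sfrp5 in 13, Wnt2b and Fzd3 in 10 each, Nkd1 in 8, Wnt4 in 6, Fzd6 in 5, Dkk3 in 2, and Fzd4 and Dkk2 in 1 each. Without the block no Wnt gene passed by limma under another pseudocount (0.1 or 0.5), no filter or one at 0.3 FPKM, quantile normalization, rescaling to equal sums, voom on recovered fragments, or without any 1 control or mutant replicate (0 to 0 calls). Array weights without the block called 6 (Wnt2, Fzd2, Fzd10, Frzb, Sfrp2 and Axin2), with 3 other pathway genes and 542 genes in all. The replicate block called 6 Wnt genes, 2 other pathway genes and 648 in all. Settings chosen after the data were seen, the block with array weights, rescaling or quantile normalization, called 12, 10 and 9 Wnt genes, 3, 2 and 4 other pathway genes, and 950, 751 and 653 in all. The block with voom called 16, 6 and 1275. The block without both libraries numbered 1, 2 or 3 called 3, 3 and 1 Wnt genes, 1, 0 and 0 other pathway genes and 349, 269 and 254 in all. Against 22 genes in all, no filter gave 8, a filter at 0.3 FPKM 10, rescaling 13 and leaving out 1 replicate 0 to 3 (0 by limma without mutant replicate 2, where an unadjusted p was under 0.05 for 178 higher and 309 lower genes). Hand2 had -1.78 without and with the block, passing with it, and passed with -1.72 after rescaling (with or without the block), -1.76 and -1.87 with array weights without and with the block, -1.73 with quantile normalization and the block, -1.82 with voom and the block, and -1.81, -1.92 and -1.60 with the block and without numbers 1, 2 and 3. Leaving out 1 replicate gave -2.03 to -1.55. The cause of these differences was not tested. The planned edgeR fit was not run, since the table holds FPKM. With 3 libraries a group, the number of libraries limits the precision.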
